A study of Mus musculus with 23 samples.

Results

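The effect of deleting Aldh7a1 from astrocytes was examined in mice fed a control diet, as the comparison of 7 cKOAstro libraries with 4 ConAstro libraries. These 11 libraries were chosen by the genotype and diet in their titles, out of 23 in the series. Cortical astrocytes were the source of the RNA, pulled from a cell suspension by their surface antigen ACSA-2 on a magnetic column, and each library was 1 mouse. The other 12 libraries came from mice of the same genotypes fed sulforaphane (SFN), an activator of the antioxidant transcription factor NRF2. All mice were homozygous for a floxed Aldh7a1 allele (Aldh7a1 flox/flox) and were labelled male. All received 4-hydroxytamoxifen on postnatal days 3 and 4, were placed on their diet at postnatal day 21, and were sampled at postnatal day 70. cKOAstro mice also carried a tamoxifen-dependent Cre recombinase (CreER) at 1 allele of Slc1a3, so that 1 copy of Slc1a3 was replaced, while ConAstro mice were littermates without Cre. Recombination removes 2 exons of Aldh7a1. The 2 genotypes therefore differed in CreER and in the dose of Slc1a3 as well as in Aldh7a1, and these differences cannot be told apart here.

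ALDH7A1 is a mitochondrial and cytosolic aldehyde dehydrogenase that oxidises the semialdehyde formed in the breakdown of lysine. When it is lost, the semialdehyde accumulates with its cyclic form, which traps pyridoxal phosphate (PLP), the active form of vitamin B6 and the cofactor of many amino acid enzymes. This loss of PLP is known from pyridoxine-dependent epilepsy in people. In the brain the enzyme is found mainly in astrocytes, the glia that clear glutamate and potassium from the extracellular space and supply neurons with metabolites.

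Total counts lay between 74771451 and 84049525 in ConAstro and between 107847897 and 391701247 in cKOAstro, with a ratio of medians of 3.05. The library names fell into series that did not cross the genotypes. All 4 ConAstro names began with 143, while cKOAstro names began with 141 (3 libraries), 146 (2 libraries) or Astro (2 libraries), so name series and genotype cannot be told apart. In the library labelled cKOAstro replicate 2, Xist, the RNA of the inactive X chromosome, measured 1548 CPM (counts per library size after TMM normalization, a trimmed mean scaling), and Ddx3y, a Y-linked gene, measured 0.0077 CPM. In the other 10 libraries Xist was at most 0.71 CPM and Ddx3y at least 89.7 CPM, so 1 library went against the label male. The first 2 principal components carried 23.04% and 19.4% of the variance, and the genotypes overlapped on both. The oligodendrocyte gene Mbp measured 342 to 420 CPM per kilobase of exon over the 11 libraries, against 635 to 1050 for the astrocyte glutamate transporter gene Slc1a2. Oligodendrocyte transcripts were thus abundant in both genotypes.

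Of 17406 genes tested, 4 changed between the genotypes at an adjusted p under 0.05 (edgeR quasi-likelihood test, Benjamini-Hochberg), which is 0.023% of the genes. Aldh7a1 and Slc1a3 fell (0.0115% of genes), and Esr1 and the long noncoding RNA gene A630020A06 rose (0.0115%). All 4 differed without overlap between the 4 ConAstro and the 7 cKOAstro libraries. Voom with sample quality weights in limma also called 4 genes, the same 4, and DESeq2 called 8 of 20878 genes (0.0383%), including these 4.

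Aldh7a1 (chromosome 18, 56509687 to 56572951, minus strand, GRCm38) measured 224, 210, 215 and 219 CPM in ConAstro replicates 1 to 4. In cKOAstro it measured 46.1, 65.1, 52.0, 78.4, 54.8, 51.1 and 72.1 CPM in replicates 1 to 7. The lowest ConAstro library was therefore far above the highest cKOAstro library, and the checked gene went with its genotype label in all 11 libraries. The level that remained in cKOAstro was 27.6 ± 5.56% of the ConAstro mean (SD, n = 7), with a range of 21.2 to 36.1%. The log2 fold change was -1.86 ± 0.13 (SE; edgeR adjusted p = 6.94e-05), with a 95% interval of -2.17 to -1.59 from limma-voom. A gene-level count adds the exons outside the loxP sites to those between them, and the isolates held other cells, so the share of astrocytes that kept an intact gene was not tested.

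Slc1a3 (chromosome 15, 8634124 to 8710764, minus strand) encodes the glutamate transporter GLAST and is the locus that carries CreER. It measured 4915, 4382, 4058 and 5016 CPM in the 4 ConAstro libraries. In cKOAstro the lowest, median and highest values were 1819, 2224 and 2873 CPM, all below every ConAstro library. The cKOAstro level was 49.5 ± 8.2% of the ConAstro mean (SD, n = 7), and the log2 fold change was -1.02 ± 0.13 (SE; edgeR adjusted p = 0.0168). The interval was -1.31 to -0.77. This call depended on single libraries. It was lost without any 1 of ConAstro replicates 1, 2 and 4 or cKOAstro replicates 2, 4 and 5 (adjusted p from 0.058 to 0.143), and among the numbered library names alone (-0.99, adjusted p = 0.367), while the direction held in each case.

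The sequence before the start of the Slc1a3 transcript is shown because it lies upstream of the gene that drives CreER and of the native transcript. It holds 250 bases of the minus strand at chr15:8710808-8711057 (RefSeq, GRCm38.p6). Capitals mark TGACGT, the core of a cyclic AMP response element, which was searched on both strands and found once.
Slc1a3: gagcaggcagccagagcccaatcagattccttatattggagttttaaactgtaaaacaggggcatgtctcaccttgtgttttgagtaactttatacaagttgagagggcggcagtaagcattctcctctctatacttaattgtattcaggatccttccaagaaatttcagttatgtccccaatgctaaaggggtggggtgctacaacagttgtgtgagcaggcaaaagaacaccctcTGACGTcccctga
The same letters were present in 6.47% of 32851 such windows. Neither the antioxidant response element TGACNNNGC (in 10.2% of windows) nor the full palindromic estrogen response element (in 0.0639% of windows) was found in this window.

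Esr1 (chromosome 10, 4611593 to 5005614, plus strand) encodes estrogen receptor alpha, a nuclear hormone receptor. ConAstro libraries held 0.97, 0.66, 1.01 and 0.77 CPM, from 71, 48, 87 and 60 reads. cKOAstro libraries held 16.1, 17.3, 22.6, 18.2, 21.7, 20.9 and 16.5 CPM, from 1805 to 8329 reads. The lowest cKOAstro library was thus far above the highest ConAstro library, and the group means differed 22.3-fold. The log2 fold change was 4.48 ± 0.17 (SE; edgeR adjusted p = 1.2e-07), the largest among the 4 called genes. The ligand-binding part of CreER derives from an estrogen receptor, and a count per gene does not separate reads of such a transgene from reads of the native gene, so their source was not tested.

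**Figure D1:**
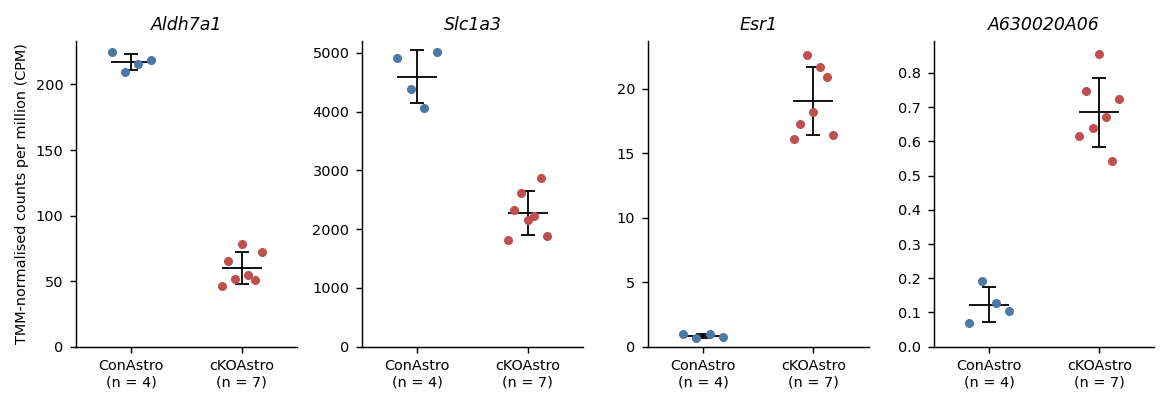
Normalised CPM (vertical axes, linear and starting at 0) of the 4 genes called between genotypes, with 1 point per library, a bar at the group mean and whiskers of 1 SD. In each panel the 4 ConAstro and 7 cKOAstro libraries do not overlap.

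Genes that act with estrogen receptors were not called with Esr1. Of 8 further steroid receptor genes tested, 0 passed the adjusted threshold in edgeR and 0 had an unadjusted p under 0.05, against 3.74% of all genes tested. Their median log2 fold change was -0.09, against -0.01 over all genes. Gper1, a membrane estrogen receptor gene, had the largest value, 0.37 ± 0.19 (SE; edgeR adjusted p = 0.981), and Pgr, the progesterone receptor gene, measured -0.21 ± 0.17 (SE). Of 13 estrogen-responsive genes, 0 passed the adjusted threshold and 2 lay higher at an unadjusted p under 0.05, against 3.74% of all genes tested. Those were Areg, a growth factor gene with a mean of 0.070 CPM, and Wisp2, a matricellular protein gene with a mean of 0.82 CPM. Areg was without a read in ConAstro replicates 1, 2 and 4, which allows up to 0.0411, 0.0411 and 0.0386 CPM (3 counts, counting error only), and measured 0.070 CPM in replicate 3 and 0.048 to 0.214 CPM in cKOAstro. Greb1, a classical estrogen receptor target, measured -0.16 ± 0.20 (SE).

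A630020A06 (chromosome 15, 3996039 to 4015858) is a long noncoding RNA gene 4.62 Mb from Slc1a3. It measured 0.069, 0.19, 0.13 and 0.10 CPM in ConAstro, from 5, 14, 11 and 8 reads. cKOAstro libraries held 0.62, 0.75, 0.64, 0.85, 0.67, 0.54 and 0.72 CPM, from 69 to 290 reads, and none reached down to a ConAstro value. The means differed 5.57-fold, with a log2 fold change of 2.47 ± 0.27 (SE; edgeR adjusted p = 0.00658). Without ConAstro replicate 4 the log2 fold change was 2.40 and the call was lost (adjusted p = 0.0598).

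The genes around Slc1a3 were then examined, since DNA near a targeted locus is inherited with it. Within 1 Mb of Slc1a3, 12 other genes were tested and 0 were called by edgeR, with log2 fold changes from -0.35 to 0.35. Only Ranbp3l, which encodes a Ran-binding protein, had an unadjusted p under 0.05 (0.29 ± 0.10, SE). Nadk2, a mitochondrial NAD kinase gene at 0.36 Mb, measured 0.01 ± 0.08 (SE), and Nipbl, a cohesin loader gene at 0.19 Mb, measured -0.03 ± 0.07 (SE). Within 5 Mb, 53 genes were tested and A630020A06 alone was called, while 5 had an unadjusted p under 0.05 (A630020A06, AW549877, Lifr, Ranbp3l and Slc45a2). Within 10 Mb, 6 of 57 genes did. Both counts were a larger share than the 3.74% of all genes and the 3.64% of 686 genes on chromosome 15, and this difference was not tested. Strain background around the locus was not tested.

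Across all genes the differences were small. The median log2 fold change was -0.01, and 8 in 10 genes lay between -0.23 and 0.26. An absolute log2 fold change of at least 1 was seen in 296 genes, of which 231 had a mean under 1 CPM. Among the remainder, Xist had the largest value (8.79 ± 3.61, SE; edgeR adjusted p = 0.981), which rests on the library labelled cKOAstro replicate 2. At an unadjusted p under 0.05, 298 genes were higher (1.71%) and 353 lower (2.03%) in cKOAstro.

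The 95% interval of the log2 fold change (limma-voom) shows what size of change each gene leaves room for. It lay wholly within -1 to 1 for 13787 genes (79.2%), and wholly within -0.5 to 0.5, a 1.41-fold change, for 10366 genes (59.6%). Precision followed expression. Of 2174 genes at 100 CPM or more, 98.8% had an interval within -1 to 1 and 93.6% within -0.5 to 0.5. Of 8296 genes between 10 and 100 CPM the shares were 95.5% and 84.2%. Below 1 CPM, 26.1% of 3179 genes lay within -1 to 1 and 0.535% within -0.5 to 0.5, so that for most of them the interval reached a 2-fold change in at least 1 direction. The common biological coefficient of variation was 23.8%.

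**Figure D2:**
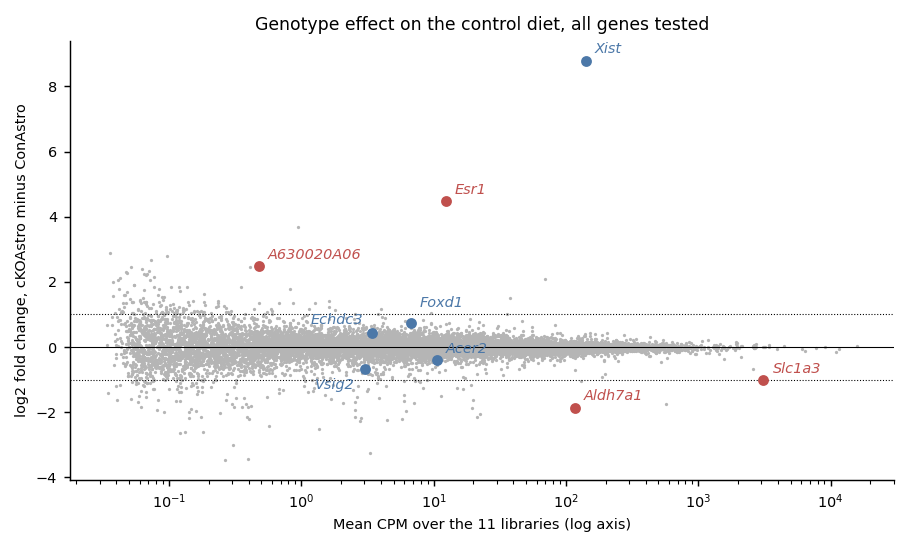
Log2 fold change (cKOAstro minus ConAstro, vertical axis) against mean CPM over the 11 libraries (horizontal log axis) for 17406 genes. Red marks the 4 genes called by edgeR, blue marks 4 genes that DESeq2 alone called and Xist, and dotted lines stand at -1 and 1. The spread narrows with expression, and 231 of the 296 genes at or beyond the dotted lines have a mean under 1 CPM.

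DESeq2 alone called 4 further genes, each of which had an edgeR adjusted p of 0.981. Acer2, an alkaline ceramidase gene of sphingolipid breakdown, measured 11.2, 13.6, 12.8 and 12.7 CPM in ConAstro and 8.6 to 10.4 CPM in cKOAstro with a median of 9.55. Its groups did not overlap, and the log2 fold change was -0.40 ± 0.08 (SE; DESeq2 adjusted p = 0.00549). Vsig2, an immunoglobulin-domain gene, measured 4.22, 3.41, 3.11 and 5.3 CPM against 2.18 to 2.88 CPM (-0.69 ± 0.15, SE; DESeq2 adjusted p = 0.0172). Its lowest ConAstro library was only slightly above its highest cKOAstro library. Foxd1, a forkhead transcription factor gene that also marks meningeal and mural cells, measured 5.17, 4.72, 3.76 and 5.32 CPM against 5.64 to 10.6 CPM (0.74 ± 0.16, SE; DESeq2 adjusted p = 0.0172). Echdc3, an enoyl-CoA hydratase domain gene, measured 3.1, 2.4, 2.61 and 3.06 CPM against 3.47 to 3.97 CPM (0.42 ± 0.11, SE; DESeq2 adjusted p = 0.00772). All 4 of these genes had groups that did not overlap, and none exceeded 13.6 CPM in any of the 11 libraries.

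Groups did not overlap for 46 genes that were higher in cKOAstro (0.264% of genes tested) and 54 that were lower (0.31%), of which 27 and 46 had a mean of at least 1 CPM. These counts include the 4 genes called by edgeR and the 4 that DESeq2 alone called. None of the others passed the adjusted threshold in edgeR, DESeq2 or voom. Of these uncalled genes, those with the lowest p are described here, 11 higher and 12 lower. They were picked for being apart in these libraries, so their values are a description.

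The higher genes differed by modest amounts. Thbs4, which encodes thrombospondin 4, a secreted protein that promotes synapse formation, measured 7.17, 5.62, 5.67 and 4.61 CPM in ConAstro and 7.33, 10.9 and 20.8 CPM as the lowest, median and highest in cKOAstro. The gap between the groups was narrow. The highest cKOAstro library, replicate 2, stood well above the others, followed by replicate 4 at 13.8 CPM. Both of these libraries had Astro names. The log2 fold change was 1.03 ± 0.27 (SE; edgeR adjusted p = 0.981), the largest of these genes. Bmp4, a bone morphogenetic protein gene, had a median of 3.92 CPM in cKOAstro against a mean of 2.86 ± 0.35 CPM (SD, n = 4) in ConAstro (0.57 ± 0.16, SE). Ndst3, a heparan sulfate sulfotransferase gene, measured 0.41 ± 0.12 (SE), with cKOAstro replicate 4 highest. Ager, the receptor for advanced glycation end products, measured 0.35 ± 0.12 (SE). The remaining 7 were Gm9776, a noncoding gene, Sema6c, a semaphorin, Med29, a Mediator subunit, 2210016L21Rik, Myadm, a myeloid-associated membrane protein, Ift46, an intraflagellar transport protein, and Pold2, a DNA polymerase delta subunit. Their log2 fold changes lay between 0.16 and 0.28.

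The lower genes also differed by modest amounts. Ireb2, which encodes the iron regulatory protein IRP2, measured 76.4, 77.5, 74.8 and 76.9 CPM in ConAstro and 66.1, 67.5 and 71.9 CPM as the lowest, median and highest in cKOAstro. The cKOAstro mean was 89.3% of the ConAstro mean, a difference that stood out because both groups varied little (-0.16 ± 0.04, SE; edgeR adjusted p = 0.981). Slc35f2, a solute carrier gene, had the largest difference of the 12 (-0.66 ± 0.17, SE), followed by Gimap6, a GTPase gene of endothelial and immune cells, at 7.18, 6.76, 7.69 and 9.24 CPM against 3.69 to 6.19 CPM (-0.58 ± 0.15, SE). For Slc35f2 and Gimap6, and also for Itga7, Purg, Lpcat1 and Mmp15 of the 12, ConAstro replicate 4 was the highest library. That library also held the most endothelial marker RNA, and whether this had a part in these differences was not tested. Itga7, the integrin alpha 7 subunit, a laminin receptor, had a mean of 104 ± 7.73 CPM (SD, n = 4) in ConAstro and measured -0.18 ± 0.06 (SE). Rock1, a kinase gene of the actin cytoskeleton, measured -0.11 ± 0.04 (SE), and Mmp15, a membrane metalloproteinase gene, -0.11 ± 0.04 (SE). The other 6, Noc3l (ribosome biogenesis), Purg (a nucleic acid-binding protein), Lpcat1 (phospholipid remodelling), Ept1 (ethanolamine phospholipid synthesis), Cdc73 (a PAF1 complex subunit) and Rmdn2 (a microtubule-associated protein), lay between -0.23 and -0.16.

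**Figure D3:**
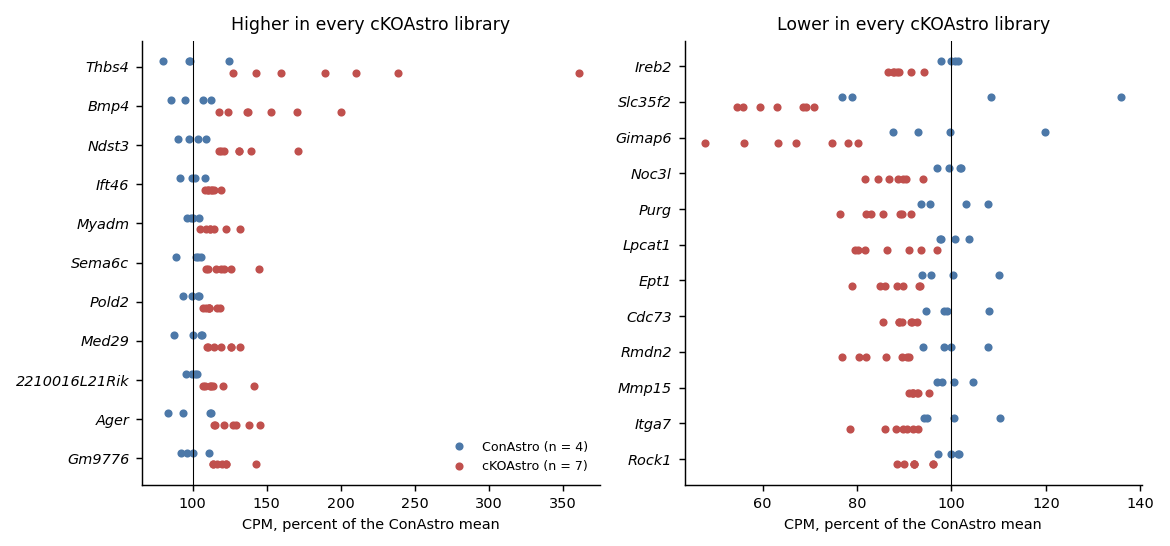
CPM of each library as a percent of the ConAstro mean (horizontal axis, linear) for 11 higher and 12 lower uncalled genes with the lowest p among those whose groups did not overlap. Blue points are the 4 ConAstro and red points the 7 cKOAstro libraries, and the genes were selected for this separation.

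Lists of genes were examined next by function. They held 522 different genes, of which 510 could be tested. On the lists other than the one that holds Aldh7a1, 0 members were called by edgeR, where 0.023% of all genes were called. Slc1a3 and Esr1 stood on no list. Counts of members at an unadjusted p under 0.05 are read against the 3.74% of all genes.

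**Figure D4:**
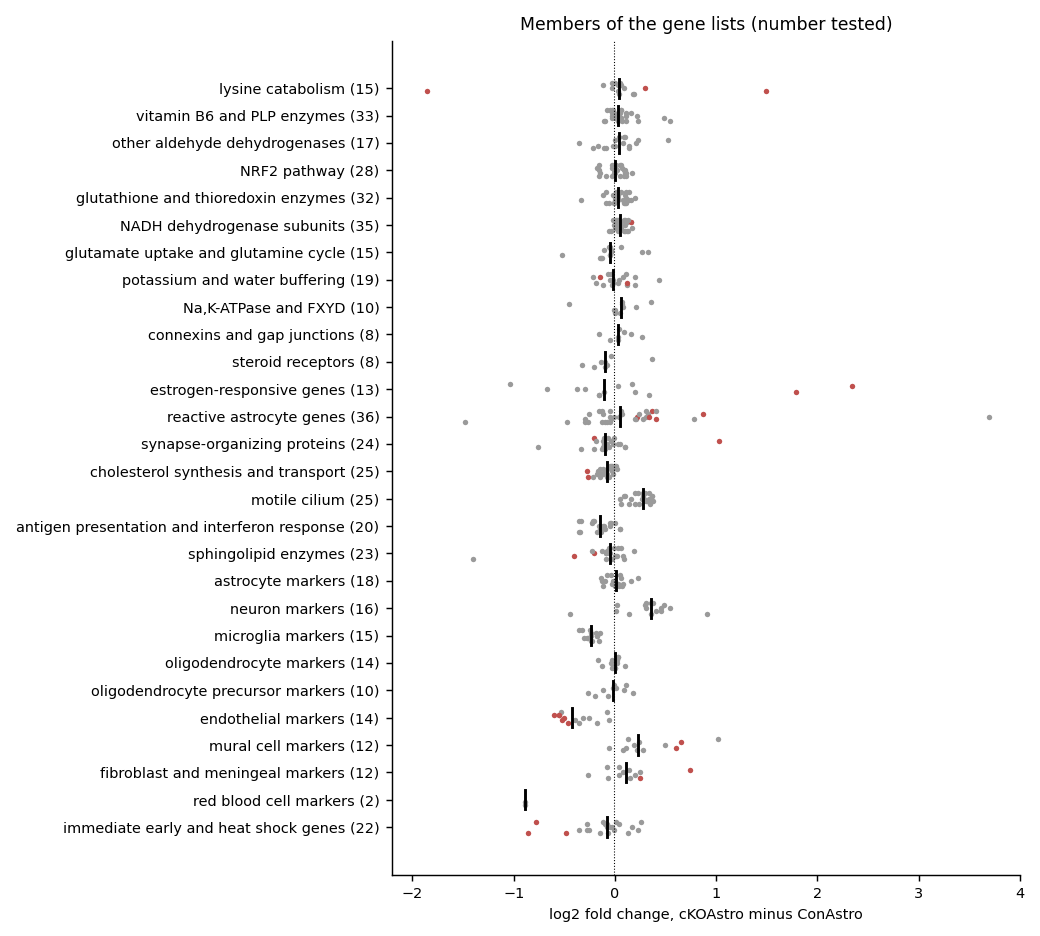
Log2 fold change (cKOAstro minus ConAstro, horizontal axis) of each tested member of 28 gene lists, with the number tested in parentheses. Red points have an unadjusted p under 0.05, black bars are list medians and the dotted line is the median of all genes, -0.01. The lysine catabolism list holds Aldh7a1 at -1.86, and the endothelial and microglia lists lie wholly to the left of 0.

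No other gene of lysine breakdown was called beside Aldh7a1. Of 15 genes tested, Aldh7a1 alone passed the adjusted threshold in edgeR, and the median of the list was 0.04. Slc25a21 and Crym lay higher at an unadjusted p under 0.05, so 2 of the 15 did beside Aldh7a1, against 3.74% of all genes. Aass, which makes the substrate of ALDH7A1 from lysine, measured 0.18 ± 0.18 (SE) with an interval of -0.32 to 0.62. Downstream, Dhtkd1, a subunit of the 2-oxoadipate dehydrogenase, measured 0.06 ± 0.18 (SE), and Gcdh, the glutaryl-CoA dehydrogenase, 0.03 ± 0.08 (SE). Slc25a21, the mitochondrial carrier of oxoadipate, measured 0.30 ± 0.11 (SE) with overlapping groups. Crym, a ketimine reductase of the pipecolate branch, had the widest values, 8.08 to 24.1 CPM in ConAstro and 7.48 to 89.3 CPM in cKOAstro (1.496 ± 0.58, SE; edgeR adjusted p = 0.981). Its interval, -0.69 to 3.15, included 0.

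The genes of PLP supply and use were examined because they depend on or make the cofactor. Of 33 PLP enzymes and vitamin B6 genes, 20 lay higher, 0 were called and 0 had an unadjusted p under 0.05, and the list median was 0.03. Pdxk, the kinase that makes pyridoxal phosphate, measured -0.10 ± 0.19 (SE) with an interval of -0.51 to 0.28. The largest value belonged to Gad1, a glutamate decarboxylase gene of inhibitory neurons, at 0.54 ± 0.29 (SE; edgeR adjusted p = 0.981). Among 17 other aldehyde dehydrogenase genes, 0 had an unadjusted p under 0.05 and the median was 0.04. Aldh4a1, which oxidises the semialdehyde of proline, measured 0.14 ± 0.07 (SE), and Aldh1a1, a retinaldehyde dehydrogenase, -0.22 ± 0.12 (SE).

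Genes of redox defence differed little. Of 28 NRF2 pathway genes, 16 lay higher and 0 had an unadjusted p under 0.05, with a median log2 fold change of 0.00 and a range of -0.18 for Hmox1, heme oxygenase, to 0.17 for Osgin1. The interval lay within -0.5 to 0.5 for 25 of the 28 and within -1 to 1 for all 28. Nfe2l2, which encodes NRF2 itself, measured -0.03 ± 0.07 (SE). Nqo1, a quinone reductase and a standard NRF2 target, measured 8.48, 10.96, 12.1 and 8.11 CPM in ConAstro and 7.76 to 10.03 CPM in cKOAstro (-0.16 ± 0.12, SE). The groups overlapped. Of 32 glutathione and thioredoxin enzymes, 0 had an unadjusted p under 0.05, the median was 0.03, and the interval lay within -0.5 to 0.5 for 28. Gss, glutathione synthetase, and Nnt, the mitochondrial transhydrogenase that makes NADPH, both measured -0.09 ± 0.06 (SE). Of 35 subunits of NADH dehydrogenase, the first complex of the respiratory chain, 31 lay higher, but the median was 0.05 and all 35 intervals lay within -0.5 to 0.5. Ndufb7 was the only subunit at an unadjusted p under 0.05 (0.16 ± 0.07, SE; edgeR adjusted p = 0.981).

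Genes for the uptake and buffering functions of astrocytes were examined one group at a time. Of 15 genes of glutamate uptake and the glutamine cycle, excluding Slc1a3, 3 lay higher and 0 had an unadjusted p under 0.05 (median -0.04). Slc1a2, the other main glutamate transporter gene of astrocytes, held a mean of 11736 ± 1424 CPM (SD, n = 4) in ConAstro and 8342 to 13794 CPM in cKOAstro (-0.14 ± 0.14, SE). Glul, glutamine synthetase, measured -0.04 ± 0.13 (SE). Of 19 potassium and water genes, 1 lay higher and 1 lower at an unadjusted p under 0.05, the lower being Clcn2, a chloride channel gene (-0.14 ± 0.06, SE). Kcnj10, the inward rectifier Kir4.1, measured -0.12 ± 0.10 (SE), and Aqp4, the water channel, -0.03 ± 0.09 (SE). Of 10 Na,K-ATPase and FXYD genes, 0 had an unadjusted p under 0.05. Atp1b2, the beta subunit of the astrocyte pump, measured 0.07 ± 0.13 (SE). Gja1, the main astrocyte connexin, measured 0.03 ± 0.11 (SE), and 0 of 8 gap junction genes had an unadjusted p under 0.05. Intervals of Slc1a2, Glul, Kcnj10, Aqp4, Atp1b2 and Gja1 all lay within -0.5 to 0.5. Over the whole lists this held for 11 of 15 glutamate genes and 15 of 19 potassium and water genes. It held for 6 of 10 Na,K-ATPase and FXYD genes and 5 of 8 gap junction genes.

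Some other astrocyte programmes held a few genes past the unadjusted threshold. Of 36 genes of reactive astrocytes, 5 lay higher and 0 lower at an unadjusted p under 0.05, with a median over the list of 0.05. S100a10, a calcium-binding protein gene, measured 10.6, 9.05, 14.6 and 11.4 CPM in ConAstro and 13.3 to 17.1 CPM in cKOAstro (0.41 ± 0.12, SE; edgeR adjusted p = 0.981). S1pr3, a sphingosine phosphate receptor gene, measured 54.3, 50.7, 35.7 and 49.2 CPM against 49.8 to 66.4 CPM (0.37 ± 0.11, SE). The groups overlapped for both. Gfap, an intermediate filament used as a standard marker of reactivity, measured -0.13 ± 0.13 (SE). Values on the list ran from -1.485 for Sphk1 to 3.69 for Lcn2. The interval lay within -0.5 to 0.5 for 7 of the 36 members and within -1 to 1 for 25. Without ConAstro replicate 3, 28 of 36 members lay higher and the list median was 0.24, while without ConAstro replicate 2 it was -0.03, so the list's direction depended on single control libraries.

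Of 24 synapse-organizing genes, Thbs4 lay higher, as above, and Nlgn3, a neuroligin gene, lower (-0.21 ± 0.06, SE; edgeR adjusted p = 0.981) at an unadjusted p under 0.05. Nlgn3 measured 82.9 to 90.8 CPM in ConAstro and 67.8 to 84.2 CPM in cKOAstro. Of 25 genes of cholesterol synthesis and transport, 3 lay higher and 22 did not, with a median of -0.08. Cyp51, the lanosterol demethylase, measured -0.27 ± 0.11 (SE) and was 1 of 2 members at an unadjusted p under 0.05, both lower. Of 23 sphingolipid enzymes, Acer2 and Sgms1, a sphingomyelin synthase gene (-0.20 ± 0.08, SE), were at an unadjusted p under 0.05. Of 20 antigen presentation and interferon genes, 0 were, and their median was -0.14. It was 0.01 among the numbered library names alone. Irf7, a transcription factor gene of the interferon response, measured -0.35 ± 0.21 (SE).

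Marker genes of the cell types that such an isolate can hold were then compared. In bulk RNA, fewer cells of a type and less RNA per cell cannot be told apart. Astrocyte markers summed to 28112 to 34190 CPM in ConAstro and 24853 to 37831 CPM in cKOAstro. Their median log2 fold change was 0.01, and 0 of 18 had an unadjusted p under 0.05. Oligodendrocyte markers summed to 28469 to 33087 CPM and 26042 to 36266 CPM, with a median of 0.00 and 0 of 14 at an unadjusted p under 0.05. Mbp, myelin basic protein, measured 0.00 ± 0.08 (SE). The genotypes overlapped fully in both of these cell types.

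Endothelial markers gave the largest count of the marker lists at an unadjusted p under 0.05. Of 14 genes, 0 lay higher, 6 were past it, and the median was -0.43. Slco1a4, an organic anion transporter gene of the blood-brain barrier, measured 39.9, 55.5, 56.9 and 95.3 CPM in ConAstro and 33.6 to 48.4 CPM in cKOAstro (-0.60 ± 0.19, SE; edgeR adjusted p = 0.981). Abcb1a, the efflux pump P-glycoprotein, measured -0.55 ± 0.19 (SE). The summed endothelial markers were 714, 871, 1104 and 1323 CPM in ConAstro replicates 1 to 4 and 739 to 955 CPM in cKOAstro. The 2 highest libraries were thus both ConAstro, and without ConAstro replicate 4 the median was -0.13, with 1 member at an unadjusted p under 0.05 and 1 that lay higher. The count past that threshold also fell to 0 with a replicate block, 1 by voom with quality weights and 2 among numbered library names. It was 7 by DESeq2 and 9 without ConAstro replicate 1. The list median stayed below 0 in each of these. Mural cell markers lay in the opposite direction, with 11 of 12 higher and a median of 0.23. Tagln (0.65 ± 0.26, SE) and Acta2 (0.60 ± 0.26, SE), contractile genes of smooth muscle, were the 2 at an unadjusted p under 0.05, and the median was 0.07 without ConAstro replicate 3. Of 12 fibroblast and meningeal genes, Foxd1 and Col1a1, a collagen gene (0.25 ± 0.10, SE), were at an unadjusted p under 0.05, with a list median of 0.11.

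Microglia and neuron markers differed more between single libraries than between genotypes. Microglia markers summed to 1628 to 2457 CPM in ConAstro. In cKOAstro they summed to 518 and 517 CPM in replicates 2 and 4, the libraries with Astro names, and to 1311 to 3304 CPM in the other 5. All 15 markers lay lower in cKOAstro (median -0.24), 0 at an unadjusted p under 0.05, yet among the numbered library names 14 of 15 lay higher (median 0.14). Neuron markers summed to 343 to 1349 CPM in ConAstro and 436 to 1239 CPM in cKOAstro, a full overlap. Of 16 neuron markers 15 lay higher, 0 at an unadjusted p under 0.05, with a median of 0.35 that was 0.15 without cKOAstro replicate 4 and 0.62 without ConAstro replicate 1. The part of other cell types in the gene differences above was not tested. Of the 10 oligodendrocyte precursor markers, 0 had an unadjusted p under 0.05, and the median was -0.01.

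**Figure D5:**
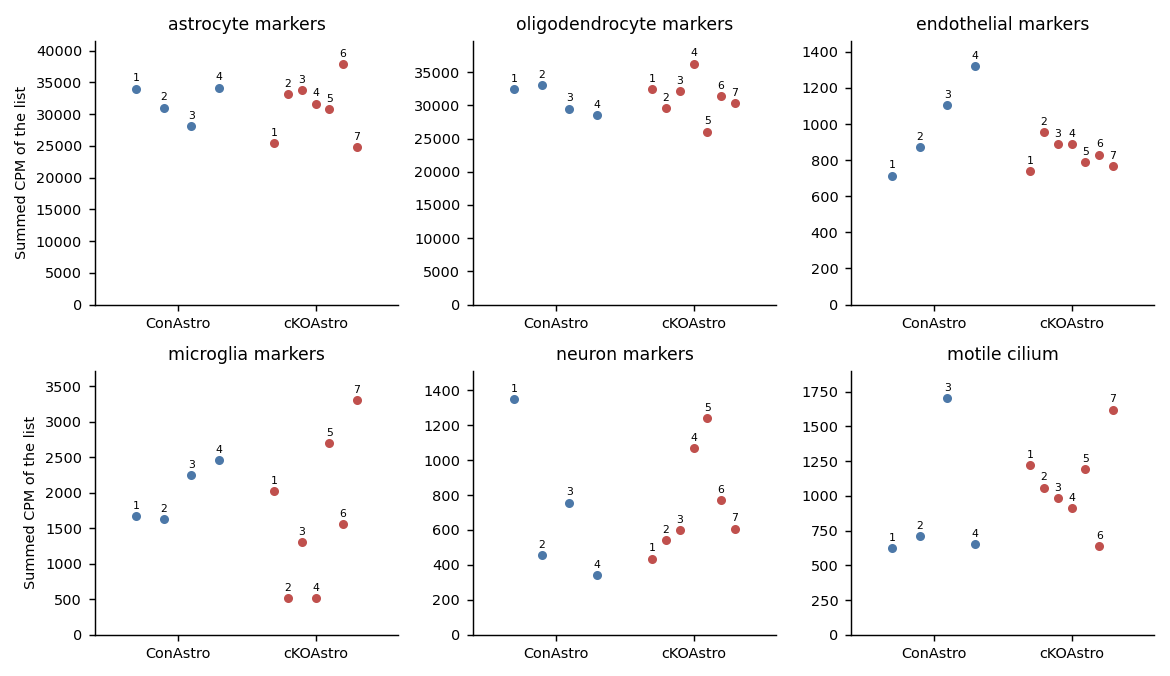
Summed CPM of 5 cell type marker lists and the motile cilium list (vertical axes, linear and starting at 0), with 1 point per library numbered by replicate. Astrocyte and oligodendrocyte sums overlap between genotypes. ConAstro replicates 3 and 4 are highest for endothelial markers, cKOAstro replicates 2 and 4 lowest for microglia markers, and ConAstro replicate 3 highest for cilium genes.

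Genes of motile cilia, which beat on the ependymal cells that line the ventricles, lay higher in cKOAstro by an amount that single libraries set. Of 25 genes tested, 25 were higher and 0 had an unadjusted p under 0.05, with a median of 0.28. Summed over the list, ConAstro replicates 1, 2 and 4 held 623, 708 and 652 CPM, whereas replicate 3 held 1705 CPM. cKOAstro libraries held 638 to 1622 CPM, with a median of 1060. Without ConAstro replicate 3 the median was 0.72 and 20 of 25 genes had an unadjusted p under 0.05, none of them past the adjusted threshold in edgeR. The median was 0.14 without ConAstro replicate 1 or without ConAstro replicate 4, with 21 of 25 genes higher in each case, 0.17 without ConAstro replicate 2 (24 higher) and 0.16 without cKOAstro replicate 7 (22 higher). Foxj1, the transcription factor that drives the motile cilium programme, measured 99.1, 122, 299 and 104 CPM in ConAstro and 104 to 262 CPM in cKOAstro (0.14 ± 0.31, SE).

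Immediate early and heat shock genes, which respond to tissue dissociation, had a median of -0.08. Its sign depended on 1 library and on the tool, since the median was 0.015 without ConAstro replicate 3 (12 of 22 higher) and 0.0083 by voom with quality weights (14 higher). It was -0.18 without ConAstro replicate 1, -0.15 without ConAstro replicate 2, -0.14 without cKOAstro replicate 7 and -0.045 without ConAstro replicate 4. Hspa1a (-0.78 ± 0.25, SE), Hspa1b (-0.85 ± 0.35, SE) and Dnajb1 (-0.49 ± 0.17, SE), all chaperone genes, lay lower at an unadjusted p under 0.05, and 0 of the 22 genes lay higher at that threshold. Of the 6 red blood cell markers only Slc4a1 and Alas2 could be tested (median -0.89, 0 at an unadjusted p under 0.05), and the list summed to at most 8.85 CPM. Hbb-bs, Hbb-bt, Hba-a1, Hba-a2 and Slc4a1 were below 1 CPM in all 11 libraries, and Hbb-bs was at 0 in each. Whether reads of near-identical globin genes were left out of the counts was not tested. These values therefore do not show that red blood cell RNA was absent.

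The same genotype contrast was available in the SFN-fed mice, which shared no library with the comparison above but differed from it in diet. Aldh7a1 went against the label in 2 of those 12 libraries, the libraries labelled SFN-fed ConAstro replicate 1 and SFN-fed cKOAstro replicate 2. Slc1a3 (2100 and 4436 CPM) and Esr1 (19.96 and 0.53 CPM) also had the other genotype's level in these libraries. Values with them therefore mix such levels, and values without them were chosen on Aldh7a1 itself, so both are given as a description. Aldh7a1 measured -1.25 ± 0.45 (SE) with them and -2.05 ± 0.10 without, and Slc1a3 -0.78 and -1.14. Esr1 measured 1.82 with and 3.92 without the 2 libraries, and A630020A06 1.01 and 1.55. All 4 called genes thus had the sign they had on the control diet in both fits. For the genotype effect on the SFN diet edgeR called 0 genes among the SFN-fed libraries as labelled (3377, or 20.3%, at an unadjusted p under 0.05) and 2 without the 2 libraries (0.012%), Aldh7a1 and Esr1, whose levels set those libraries apart. The count as labelled rested on single libraries, since it was 701 without SFN-fed cKOAstro replicate 3 and 0 without any other 1 library.

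For the genes DESeq2 alone called, Acer2, Vsig2 and Echdc3 kept their sign. Acer2 measured -0.42 ± 0.25 (SE) with and -0.23 ± 0.26 without the 2 libraries, and Vsig2 -0.62 ± 0.31 and -0.57 ± 0.35. Echdc3 lay near 0 at 0.06 ± 0.12 and 0.03 ± 0.13, against 0.42 on the control diet. Foxd1 changed sign. It measured -0.62 with and -0.70 without the 2 libraries, against 0.74 on the control diet, although its interaction of genotype and diet missed the adjusted threshold in edgeR (-1.36, adjusted p = 0.538). Among the 12 genes selected as higher without overlap, 7 had the same sign in both fits, including Thbs4 at 0.89 ± 0.35 and 0.57 ± 0.34 (SE). The highest SFN-fed Thbs4 value, 21.2 CPM, was in SFN-fed cKOAstro replicate 2, 1 of the 2 libraries. Among the 12 selected as lower, 11 had the same sign with and 10 without the 2 libraries, including Ireb2 at -0.11 and -0.12, Gimap6 at -0.53 and -0.39, and Lpcat1 at -0.30 and -0.35. Over all genes 65.2% had the same sign with and 61.9% without those libraries, so that 7 of 12 is near the background. Bmp4, Ndst3, Myadm, Sema6c and Gm9776 had the opposite sign, with Myadm at -0.21 and -0.23. Hspa1a (0.68 and 1.13) and Dnajb1 (0.33 and 0.52), heat shock genes that lay lower on the control diet, also had the opposite sign. Their interactions over all libraries missed the adjusted threshold in edgeR (adjusted p = 0.673 for both). The interaction was called by edgeR for 0 of 17302 genes, with 1267 (7.32%) at an unadjusted p under 0.05, and for 0 without the 2 libraries, with 8.32% at that threshold.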

How the data were processed

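The deposited table holds, per the labels and the study's methods, raw read counts per gene symbol that the authors made with STAR on mm10 (quality checked with FastQC), with no normalization and no pooling. The versions, the gene annotation and the strand setting of the counts used are not given in the sources used here, so overlapping, antisense and near-identical genes are uncertain. Of 24411 symbols, 23334 matched once in GENCODE M21 (GRCm38), which gave coordinates. A630020A06 was placed through RefSeq of the same build.

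The 7 cKOAstro and 4 ConAstro libraries were grouped as labelled and compared in edgeR 4.0.16 (R 4.3.3) by its quasi-likelihood test, with TMM normalization over these 11 libraries and filterByExpr (minimum count 10, minimum total 15). P-values were two-sided and adjusted by Benjamini-Hochberg over all genes tested, threshold 0.05. Fold changes carry edgeR's moderated standard error (SE), 95% intervals come from limma-voom 3.58.1, and CPM are means ± SD. SFN-fed libraries were fitted alone and, for the interaction, with all 23. Each library is 1 mouse, and no pair of libraries of a group agreed within counting noise. Limits for 0 reads (3 counts) reflect counting error alone, because PCR copies were not marked.

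The genes described were Esr1, Slc1a3, Aldh7a1, every gene past an adjusted p of 0.05 in edgeR, DESeq2 1.42.0 or voom with quality weights, the 12 higher and 12 lower uncalled genes of lowest p whose CPM did not overlap (mean of at least 1 CPM), the 2 members of lowest p on each list and role-defining members. Other list members were named, after their values were seen, as the ends of a range or for their role. The members and lists were chosen with earlier results of these data known, so no pattern here is independent support. Alternatives were DESeq2, voom with quality weights, relative log expression (RLE) normalization, 2 other filters, all 4 groups in 1 fit, a replicate block, numbered library names only, the Astro name as a covariate, counts thinned to the smallest total, a robust fit and leaving out each library. Scripts were tested on simulated data. Replicate numbers did not pair the libraries. Gene set tests were not run. A few genes that these rules select are not reported here, though list counts and medians include them.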

Additional observations from a re-analysis of the deposited data

Results flagged for a closer look

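Of 242 series of values examined (the named genes and the list sums in each group), 14 held 1 library whose distance from its nearest neighbour took up more of the group's range than Dixon's 95% critical value. Chance gives about 1 such library in 20 independent groups. The series share libraries and genes and so are not independent, and 14 of 242 cannot be judged against that rate.

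In cKOAstro replicate 4, Ndst3 measured 6.79 CPM (others 4.68 to 5.53), 2210016L21Rik 65.3 (others 49.3 to 55.5), Gm9776 6.75 (others 5.37 to 5.82) and Fxyd7, a regulator of the sodium pump in neurons, 13.97 (others 5.82 to 8.16). Ndst3, 2210016L21Rik and Gm9776 are among those whose groups did not overlap.

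In ConAstro replicate 3, the motile cilium list summed to 1705 CPM (others 623 to 708). Foxj1 measured 299 CPM (others 99.1 to 122), Tmem212 48.6 (others 17.97 to 18.9) and Ccdc40, a cilium assembly gene, 52.5 (others 18.2 to 20.0). The smooth muscle gene Acta2 measured 59.5 CPM there (others 33.2 to 36.7), and Areg 0.070 CPM against 0 reads in the other ConAstro libraries.

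In single further libraries, Sox9, a transcription factor of astrocytes, measured 269 CPM in ConAstro replicate 4 (others 192 to 204), S1pr3 49.8 in cKOAstro replicate 5 (others 61.0 to 66.4), Acta2 113 in cKOAstro replicate 7 (others 43.7 to 71.5) and Hspa1a 29.7 in the library labelled cKOAstro replicate 2 (others 14.6 to 20.5).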

How the results depend on the processing

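DESeq2 called 8 genes in place of 4, and all 4 were among them. All 4 groups in 1 fit, which includes the 2 SFN-fed libraries against their labels, called 0 (437 at an unadjusted p under 0.05). With a replicate block 1 gene was called, Esr1 (4.45, adjusted p = 0.00294), while Aldh7a1 (-1.87, adjusted p = 0.152), Slc1a3 and A630020A06 lost the call. The numbers do not pair the libraries, since deviations of same-numbered libraries correlated between -0.117 and 0.0555. Leaving out each library gave 2 to 4 calls, with 2 only without ConAstro replicate 4. Over the alternatives in which each was tested, Esr1 lay between 4.38 and 4.63, Aldh7a1 between -1.97 and -1.80, A630020A06 between 2.28 and 2.77 and Slc1a3 between -1.08 and -0.96. The interval of the genotype effect on the control diet lay within -1 to 1 for 12908 to 14185 genes. Among SFN-fed libraries 2 genes were called without the 2 libraries against their labels, and leaving out each library gave 0 to 701 calls, with 701 only without SFN-fed cKOAstro replicate 3, an alternative chosen after seeing the data. The interaction had 0 calls in edgeR under each alternative run. The cause of these differences was not tested.

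Genes whose value was close to 0 or varied widely changed sign. Voom with quality weights gave 0.25 for Fxyd6, 0.032 for Gfap, -0.024 for Gja1, -0.034 for Mbp and -0.038 for Aldh1l1. With a replicate block Glul measured 0.024. With numbered library names only, values were 0.065 for Aif1, 0.0076 for Aqp4, -0.021 for Gja1, -0.034 for Aass, -0.039 for Mbp and -0.026 for Aldh1l1. With the Astro name as a covariate they were 0.055 for Aif1, -0.035 for Gja1, -0.047 for Aass, -0.052 for Mbp and -0.040 for Aldh1l1. Leaving out each library gave -0.081 to 0.0029 for Aqp4, -0.023 to 0.66 for Foxj1, -0.69 to 0.31 for Fxyd6, -0.23 to 0.041 for Gfap, -0.054 to 0.34 for Cspg4, -0.010 to 0.12 for Atp1b2, -0.017 to 0.072 for Gja1, -0.22 to 0.037 for Pdxk, -0.033 to 0.050 for Mbp, -0.025 to 0.10 for Aldh1l1 and -0.087 to 0.013 for Glul. Of these omissions, Fxyd6, Gfap, Cspg4, Atp1b2 and Pdxk changed sign only in the one of ConAstro replicate 3. Below 1 CPM, depth and spread widen the intervals.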
